A study of Rattus norvegicus with 8 samples.

Results

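Chemokines are small secreted or membrane-tethered proteins that steer white blood cells, and the genes of these ligands and of their receptors are described here across the arrays of rat kidney medulla and cortex. The genes were chosen by symbol alone, as those that start with Ccl, Cxcl, Ccr or Cxcr followed by a digit, together with Cx3cl1, Xcl1 and Xcr1. They are 51 of the 18166 genes measured by a probe set with 1 gene symbol, and each of the 51 had 1 such probe set. There are 34 ligands, of which 20 are CC, 12 are CXC, 1 is the CX3C ligand Cx3cl1 and 1 is the C ligand Xcl1. The 17 receptors are 10 CC receptors, 6 CXC receptors and Xcr1. All 51 Entrez identifiers carried the same symbol in the rat RefSeq table of assembly GRCr8. Cx3cr1, the receptor of Cx3cl1, falls outside the symbol rule and is given beside its ligand.

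Chemokines are grouped by the spacing of their first cysteines, and they act through G protein-coupled receptors on leukocytes, with several ligands often sharing a receptor. Many of the ligand genes are switched on in injured or inflamed cells through the transcription factor NF-kB or through interferons, while others, such as Cxcl12, are made steadily by stromal cells. In the kidney, tubular cells are a known source of Ccl2, Cx3cl1 and Cxcl16, which draw or hold monocytes and lymphocytes.

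Expression was measured with whole-transcript microarrays in 4 samples of medulla and 4 of cortex from kidneys of ten-week-old male Wistar rats. All 8 samples carry one treatment label, with ethylene glycol given every day and vitamin D every other day for 1 week. No sample is labelled untreated, so no untreated group could be picked out by label. A shared label does not show that all 8 arrays were treated alike, and this was not tested. The labels name neither the animals nor which arrays share one, so a p-value here speaks of array-to-array spread alone, some of which may be technical. Replicate numbers name the arrays within a region, and whether arrays of the same number in medulla and cortex share an animal is not given. Equal findings on the same replicate number in both regions may therefore not be independent. The regions were compared unpaired.

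All levels below are log2 of the deposited intensity, on which a difference of 1 is 2-fold, and the brightness of different probe sets cannot be compared as a level. The array medians lay between 5.09 and 5.12 and the lower quartiles between 4.45 and 4.48, and these serve only as signal context. Of 7 medulla markers 6 had the higher mean in medulla, and of 5 cortex markers 0 did, and none passed the test. The urea transporter gene Slc14a2 spanned 6.15 to 7.42 in medulla and 4.80 to 5.88 in cortex, while Slc34a1, the phosphate transporter gene of the proximal tubule, spanned 9.71 to 11.01 in medulla and 10.42 to 11.10 in cortex. The replicate 4 arrays stood apart from the others of their region. Of all genes, 222 lay at least 2-fold above and 150 at least 2-fold below the median of the other 3 arrays on medulla replicate 4, and 169 lay above and 181 below on cortex replicate 4, against 8 to 60 on any other array in either direction. The summed intensity of the 7 medulla markers was also lowest there, at 9100, 7574, 6504 and 3632 on medulla replicates 1 to 4 and 7828, 6488, 5726 and 2689 on cortex replicates 1 to 4. Havcr1, which encodes the tubular injury marker KIM-1, measured 4.54, 4.80, 8.95 and 11.32 in medulla and 4.59, 5.15, 7.54 and 11.27 in cortex. Cyp24a1, the enzyme that inactivates vitamin D, measured 5.31, 5.69, 10.08 and 9.97 in medulla and 5.42, 6.22, 10.18 and 10.65 in cortex. Both were high on replicates 3 and 4 of each region, with Havcr1 highest on replicate 4. Whether replicates 1 and 2 differed from replicates 3 and 4 in treatment was not tested. The part of these differences between arrays in the chemokine values was not tested, and results that rest on the replicate 4 arrays are given with and without them.

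None of the chemokine genes passed the test between medulla and cortex. Region is the 1 label by which the samples differ, and differences are given as medulla minus cortex. By limma, with Benjamini-Hochberg adjustment over all 18166 genes, a call needed a 2-fold difference and an adjusted p below 0.05. It called 0 of the 51 genes, where percent called over all genes was 0, and the same held with a trended robust prior, array weights or limma's treat. The lowest adjusted p among the 51 was 0.875. At an unadjusted p below 0.05 stood 2 of them, Xcl1 and Ccr7, 3.92% against 5.35% of all genes. In 0 of the 51 did the 4 medulla values lie wholly on 1 side of the 4 cortex values, against 2.83% of all genes. That count was 4 with cortex replicate 1 left out, 3 with medulla replicate 2 or cortex replicate 4 left out, 1 with medulla replicate 4 or cortex replicate 2 left out, and 5 with both replicate 4 arrays left out. The shares over all genes are not given with arrays left out. With fewer arrays the regions overlap less often by chance, so these counts cannot be set against 2.83%. The median difference of the 51 was -0.01, as it was over all genes, and 20 of 51 (39.2%) had a difference above 0, against 45.8% of all genes.

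The spread lay between arrays of the same region, and mostly in the ligands. The range, the highest minus the lowest log2 value of the 4 arrays of a region, reached 2-fold for 8 of the 51 genes in medulla, against 3.8% of all genes, and for 7 in cortex, against 3.6%. It reached 2-fold in both regions for 6 genes, 11.8% of the 51 against 2.21% of all genes. These were Ccl2, Cxcl9, Cxcl11, Cxcl12, Cxcl13 and Cxcl16, all of them ligands and 5 of them of the 12 CXC ligands. Without medulla replicate 4 the counts were 3 in medulla and 2 in both regions, and without cortex replicate 4 they were 3 in cortex and 3 in both. Ccl6 and Ccr2 reached it in medulla only and Ccl20 in cortex only, and a difference between the regions in this was not tested. Together 9 genes reached it in either region, 17.6% against 5.19% of all genes, and Ccr2 was the 1 receptor of 17 among them. A 3-fold range was reached by 3 genes in medulla (Ccl2, Ccr2 and Cxcl11) against 0.864% of all genes, and by 4 in cortex (Ccl2, Ccl20, Cxcl11 and Cxcl12) against 1.02%. Ccl2 and Cxcl11 reached it in both, against 0.528%. At the other end, 40 of the 51 ranged under 1.5-fold in both regions, 78.4% against 81.7% of all genes. By signal, 14 of the 51 lay above the median of all probe sets on all 8 arrays, 27.5% against 56.1% of all genes, and 23 lay below it on all 8, 45.1% against 33.7%. Of the 17 receptors 12 lay below it on all 8, and of the 34 ligands 11 did. At such signals a range may not show, and the part of this in the ligand and receptor counts was not tested. Below the lower quartile on all 8 arrays lay 6 (Ccl1, Cxcl3, Ccr3, Ccr6, Ccr9 and Ccr1l1), against 12.2% of all genes.

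**Figure D1:**
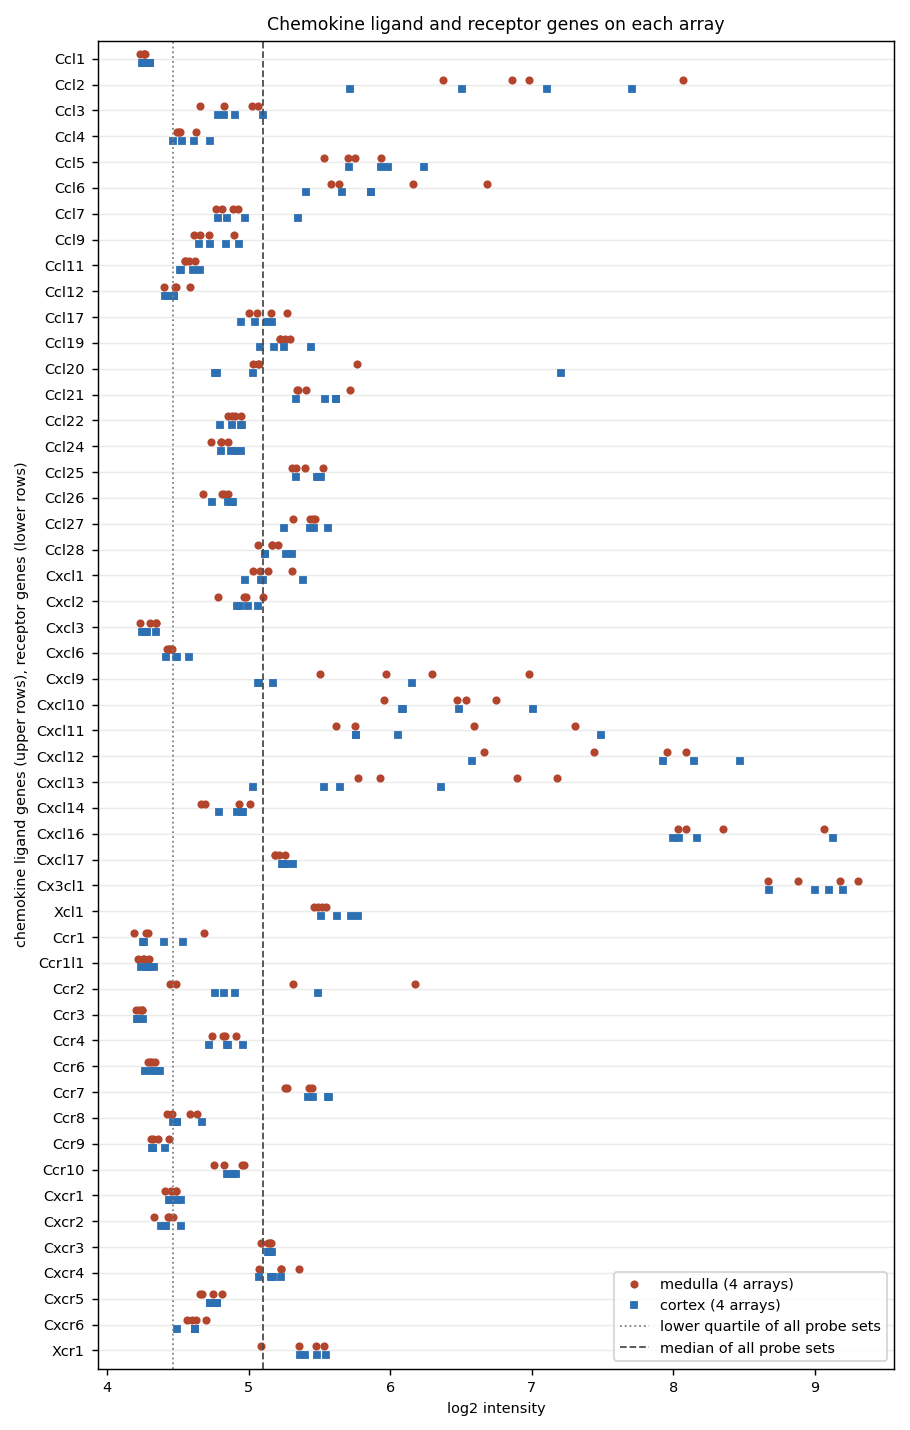
Log2 intensity (horizontal axis) of each of the 51 chemokine ligand and receptor genes (rows) on the 4 medulla arrays (circles, upper line of a row) and the 4 cortex arrays (squares, lower line). The dotted and dashed lines are the mean lower quartile and the mean median of all probe sets. Most genes form a tight cluster near these lines, while Ccl2, Ccl20, Cxcl9, Cxcl11, Cxcl12, Cxcl13, Cxcl16 and Ccr2 spread between arrays of a region.

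**Figure D2:**
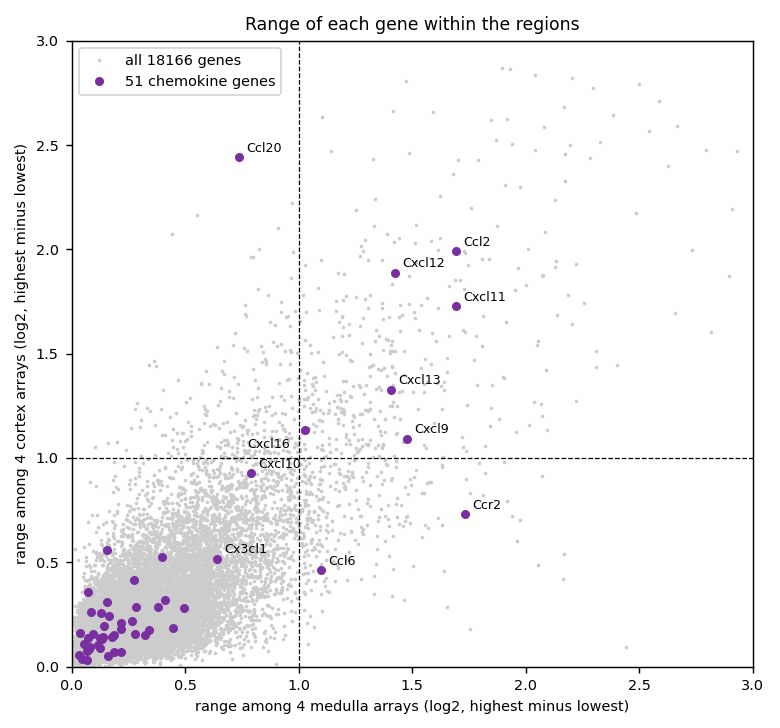
Range within medulla (horizontal axis) and within cortex (vertical axis), in log2 units, for all 18166 genes (small grey points) and the 51 chemokine genes (large points). The dashed lines mark a 2-fold range, and 22 genes, 0 of them chemokine genes, lie beyond the axes. Past both lines lie 6 named points, and Ccl20 lies at 0.74 in medulla and 2.44 in cortex.

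Promoter sequence is shown for 6 ligands, 5 that ranged at least 2-fold in a region and Cxcl10, which lies between Cxcl11 and Cxcl9. RefSeq promoter entries on build GRCr8 were matched for 39 of the 51 genes, and Ccl2 is not among them. The 250 bases before the annotated start were searched on both strands for 4 motifs. The NF-kB type is GGG, any 3 bases, then TTCC, and the AP-1 type is TGANTCA. The interferon response type is GAAA, any 2 bases, then GAAA, and the STAT type is TTCNNNGAA. Capitals mark every match, and overlapping matches run into each other. Cxcl11, Cxcl10 and Cxcl9 are neighbouring genes on the same chromosome. The windows of the 6 genes are as follows.
Cxcl11 (chr14:15973478-15973727, plus strand): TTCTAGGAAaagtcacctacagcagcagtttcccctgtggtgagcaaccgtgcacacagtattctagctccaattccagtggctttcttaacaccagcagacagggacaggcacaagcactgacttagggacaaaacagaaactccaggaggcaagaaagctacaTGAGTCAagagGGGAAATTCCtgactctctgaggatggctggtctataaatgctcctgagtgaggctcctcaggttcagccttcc
Cxcl10 (chr14:15988816-15989065, plus strand): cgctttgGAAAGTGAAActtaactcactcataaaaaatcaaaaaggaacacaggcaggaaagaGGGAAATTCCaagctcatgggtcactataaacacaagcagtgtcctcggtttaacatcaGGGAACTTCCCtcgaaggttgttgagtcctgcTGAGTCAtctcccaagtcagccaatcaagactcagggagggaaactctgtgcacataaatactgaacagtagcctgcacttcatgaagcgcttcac
Cxcl9 (chr14:16006916-16007165, plus strand): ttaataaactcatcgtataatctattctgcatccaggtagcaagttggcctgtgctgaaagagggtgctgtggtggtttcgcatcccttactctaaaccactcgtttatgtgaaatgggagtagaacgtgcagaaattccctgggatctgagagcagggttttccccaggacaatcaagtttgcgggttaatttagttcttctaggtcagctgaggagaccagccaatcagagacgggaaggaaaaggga
Ccl20 (chr9:91836909-91837158, plus strand): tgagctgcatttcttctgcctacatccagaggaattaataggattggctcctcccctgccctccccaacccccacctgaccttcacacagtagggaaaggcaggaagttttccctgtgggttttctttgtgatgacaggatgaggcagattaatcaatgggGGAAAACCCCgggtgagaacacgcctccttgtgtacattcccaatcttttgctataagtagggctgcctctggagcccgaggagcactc
Cxcl16 (chr10:55669951-55670200, minus strand): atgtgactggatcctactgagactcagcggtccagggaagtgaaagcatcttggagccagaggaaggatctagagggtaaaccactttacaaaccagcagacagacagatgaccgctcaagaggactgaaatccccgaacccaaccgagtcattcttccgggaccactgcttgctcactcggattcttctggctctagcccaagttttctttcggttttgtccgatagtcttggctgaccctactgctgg
Cxcl12 (chr4:152060531-152060780, plus strand): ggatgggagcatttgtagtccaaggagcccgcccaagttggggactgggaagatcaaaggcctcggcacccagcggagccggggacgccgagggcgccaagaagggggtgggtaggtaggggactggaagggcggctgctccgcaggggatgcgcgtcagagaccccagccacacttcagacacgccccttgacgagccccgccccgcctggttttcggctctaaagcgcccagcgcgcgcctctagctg

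The NF-kB type motif was present in 10 of the 39 windows, 25.6% against 4.53% of all 33469 windows. They belong to Ccl6, Ccl7, Ccl9, Ccl20, Ccr3, Cxcl1, Cxcl2, Cxcl6, Cxcl10 and Cxcl11. Of these, Ccl6 and Ccl9 are neighbouring genes, as are Cxcl1 and Cxcl2. The 33469 windows are all entries searched, not only those of the measured genes, while each of the 39 genes gave 1 window. The AP-1 type was present in 7 (17.9% against 6.34%), the interferon response type in 2 (5.13% against 3.41%) and the STAT type in 4 (10.3% against 7.67%). Among genes that ranged at least 2-fold in a region, 3 of 8 windows held the NF-kB type, as did 7 of the 31 other windows. The printed windows of Cxcl9, Cxcl16 and Cxcl12 hold none of the 4 motifs. These matches describe letters in the windows, and no binding was measured.

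Ccl2, the main attractant of monocytes, ranged widely in both regions. On replicates 1 to 4 it measured 6.86, 6.38, 6.98 and 8.07 in medulla, and 7.11, 6.51, 5.71 and 7.71 in cortex (probe set 17649426). Replicate 4 was the highest array of both regions, cortex replicate 3 was the lowest of all 8, and the regions overlapped. Its means were 7.07 ± 0.72 in medulla and 6.76 ± 0.85 in cortex (SD, n = 4 each), a difference of 0.31 ± 0.50 (SE) with limma's adjusted p at 0.95. That sign turned without medulla replicate 4, at -0.02, and without cortex replicate 3, at -0.04. The range was 3.24-fold in medulla and 3.97-fold in cortex. Without the replicate 4 array it was 0.61 log2 in medulla, under 2-fold, and 1.40 in cortex.

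Ccr2 is the receptor through which monocytes answer Ccl2. It measured 4.49, 4.44, 5.31 and 6.17 on the medulla arrays and 4.90, 4.82, 4.76 and 5.49 on the cortex arrays. Replicate 4 was again the highest array of both regions, 3.21-fold above the median of the other 3 in medulla and 1.59-fold in cortex. The range was 3.32-fold in medulla, and without medulla replicate 4 it was 0.87 log2, under 2-fold. Ccl7 and Ccl12, which also bind Ccr2 in mice and are close neighbours of Ccl2 on the chromosome, had their highest value on replicate 4 of both regions as well, over far smaller ranges. Ccl7 spanned 4.77 to 4.93 in medulla and 4.79 to 5.35 in cortex, and Ccl12 spanned 4.40 to 4.59 in medulla and 4.41 to 4.48 in cortex.

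**Figure D3:**
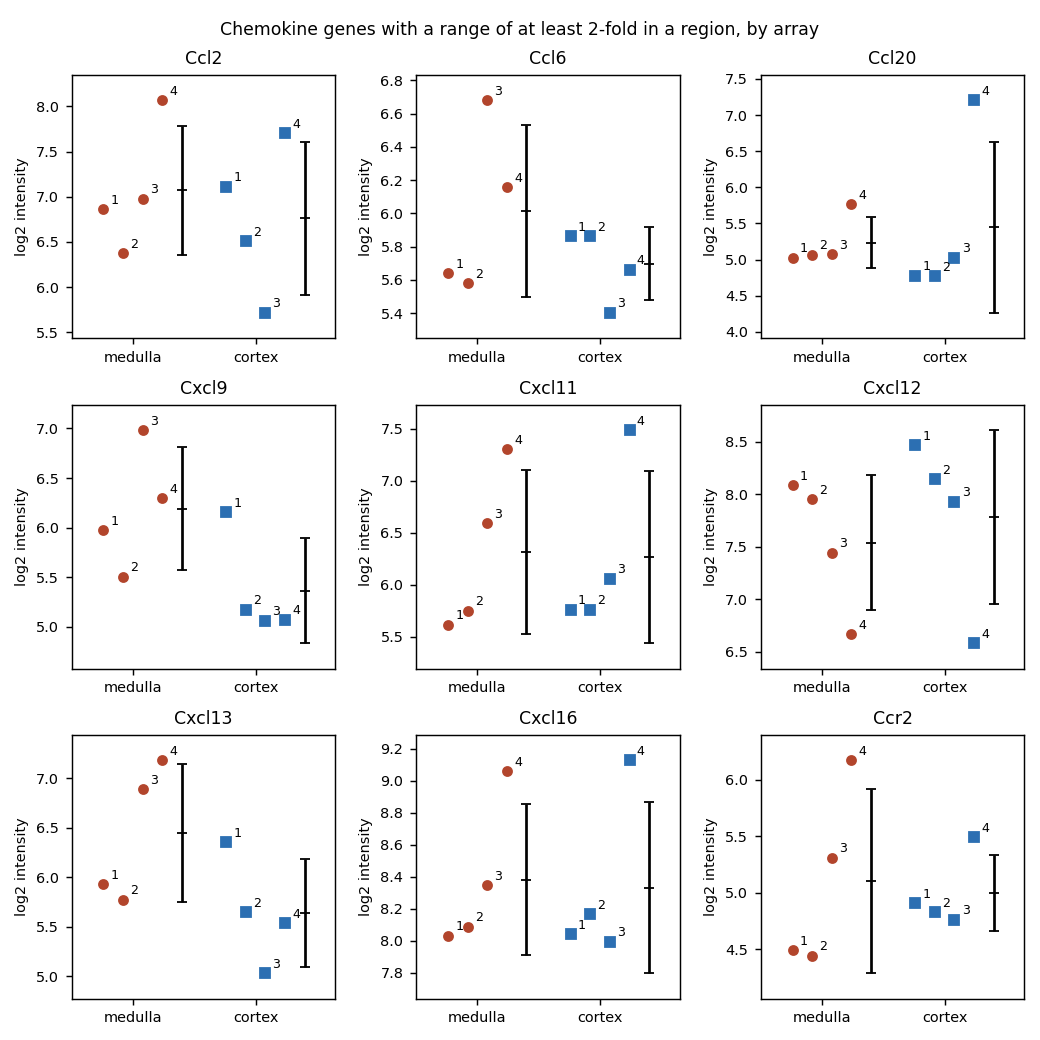
Log2 intensity of the 9 chemokine genes that ranged at least 2-fold in a region, on each medulla array (circles, left) and cortex array (squares, right). Digits are replicate numbers, the black bars beside each group show the mean and SD of its 4 arrays, and each panel has its own vertical scale that does not start at 0. Replicate 4 is the highest array of both regions for Ccl2, Ccl20, Cxcl11, Cxcl16 and Ccr2 and the lowest of both for Cxcl12.

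Cxcl9, Cxcl10 and Cxcl11, whose windows are printed above, encode interferon-inducible ligands of Cxcr3, the receptor of activated T cells. Cxcl11 measured 5.62, 5.75, 6.59 and 7.31 in medulla, and 5.76, 5.76, 6.06 and 7.49 in cortex (probe set 17688703). Its replicate 4 value was 2.94-fold the median of the other 3 arrays in medulla and 3.31-fold in cortex. Without those arrays its range was 0.98 log2 in medulla and 0.30 in cortex, both under 2-fold.

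Cxcl10 had the same highest arrays on a smaller scale. It measured 6.47, 5.96, 6.53 and 6.75 in medulla and 6.48, 6.08, 6.09 and 7.01 in cortex, a range of 1.73-fold in medulla and 1.90-fold in cortex. Cxcl9 did not follow them, though it lies next to Cxcl10. It stood at 5.97, 5.51, 6.98 and 6.30 in medulla, and at 6.16, 5.17, 5.06 and 5.07 in cortex. Its highest arrays were medulla replicate 3 and cortex replicate 1, and medulla and cortex overlapped through cortex replicate 1. The means were 6.19 ± 0.62 in medulla and 5.37 ± 0.53 in cortex (SD, n = 4 each), a difference of 0.82 ± 0.36 (SE). That was the largest difference among the 51 genes and did not pass, with limma's adjusted p at 0.875 and an exact permutation p of 0.0857, two-sided, where the smallest that 4 against 4 arrays allow is 0.0286. Its range was under 2-fold, at 0.79 log2, without medulla replicate 3 and at 0.11 without cortex replicate 1.

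Cxcl13 attracts B cells through Cxcr5. It measured 5.93, 5.78, 6.89 and 7.18 in medulla and 6.36, 5.65, 5.03 and 5.54 in cortex (probe set 17693246). Medulla replicates 3 and 4 were high, and the groups overlapped because cortex replicate 1 lay above medulla replicates 1 and 2. Its difference of 0.80 ± 0.40 (SE) had an adjusted p of 0.875 and an exact permutation p of 0.143. Cxcl9 and Cxcl13 were the 2 chemokine genes that ranged at least 2-fold in both regions with both replicate 4 arrays left out, 3.92% against 0.248% of all genes. Without cortex replicate 1 the cortex range of Cxcl13 was 0.62 log2 and without cortex replicate 3 it was 0.82, both under 2-fold. The probe sets of their receptors varied little, with Cxcr3 between 5.09 and 5.16 in medulla and between 5.14 and 5.17 in cortex. Cxcr5 spanned 4.65 to 4.81 in medulla and 4.73 to 4.78 in cortex. Cxcr5 lay below the median of all probe sets on all 8 arrays and Cxcr3 lay close to it, and at such signals a change may not show.

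Cxcl16 and Cx3cl1 are the chemokines made as membrane-bound proteins, and their signals lay well above the array medians on all 8 arrays. Cxcl16, ligand of Cxcr6 on lymphocytes, measured 8.03, 8.09, 8.35 and 9.06 in medulla and 8.04, 8.17, 7.99 and 9.13 in cortex (probe set 17658124). The 3 other arrays of each region lay close together below the replicate 4 array, with ranges of 0.31 log2 in medulla and 0.17 in cortex without it. The full ranges, 2.04-fold in medulla and 2.19-fold in cortex, lie just past the 2-fold threshold, and the medulla range was 0.99 log2, under it, when 16 was added to each intensity before the log. Cxcr6 stayed between 4.56 and 4.70 in medulla and between 4.49 and 4.62 in cortex, below the median of all probe sets on all 8 arrays.

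Cx3cl1, known as fractalkine, had close means in medulla and cortex. It measured 9.18, 8.88, 8.67 and 9.31 in medulla and 9.10, 9.0, 8.68 and 9.20 in cortex (probe set 17731597). The means were 9.01 ± 0.29 in medulla and 8.99 ± 0.23 in cortex (SD, n = 4 each), and the difference of 0.01 ± 0.17 (SE) was smaller than its error, with limma's adjusted p at 0.992. Its receptor Cx3cr1, which marks monocytes and resident kidney macrophages, measured 5.74, 5.46, 6.28 and 6.64 in medulla and 6.17, 5.81, 5.24 and 5.97 in cortex. Between arrays Cx3cl1 ranged by 0.64 log2 in medulla and 0.52 in cortex, and Cx3cr1 by 1.18 in medulla and 0.93 in cortex.

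Cxcl12, the stromal chemokine that holds stem cells and lymphocytes through Cxcr4, was lowest where Ccl2, Cxcl11 and Cxcl16 were highest. It measured 8.09, 7.95, 7.44 and 6.66 in medulla, and 8.47, 8.14, 7.93 and 6.58 in cortex (probe set 17786463). The replicate 4 array was the lowest of both regions, at 0.409 of the median of the other 3 arrays in medulla and 0.339 in cortex. Of all 51 genes it was the 1 that lay at least 2-fold below the other arrays on replicate 4 of both regions, as 0.584% of all genes did. Without replicate 4 its range was 0.65 log2 in medulla and 0.54 in cortex, both under 2-fold. The difference between the regions was -0.24 ± 0.47 (SE) with an adjusted p of 0.959, and its sign turned without medulla replicate 4, at 0.05.

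The receptors of Cxcl12 ranged under 2-fold. Cxcr4 measured 5.23, 5.07, 5.35 and 5.23 in medulla and 5.23, 5.16, 5.07 and 5.17 in cortex. Ackr3, the scavenging receptor that removes Cxcl12, measured 7.19, 7.02, 7.14 and 6.78 in medulla and 6.90, 7.48, 7.11 and 6.68 in cortex. Replicate 4 was the lowest array of both regions for Ackr3.

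Ccl20, the ligand of Ccr6 on Th17 and dendritic cells, was high on a single cortex array. It measured 5.03, 5.07, 5.07 and 5.77 in medulla and 4.78, 4.77, 5.03 and 7.21 in cortex (probe set 17860906). Cortex replicate 4 stood 5.39-fold above the median of the other 3 cortex arrays, and medulla replicate 4 stood 1.62-fold above its own. Without cortex replicate 4 the cortex range was 0.26 log2, and the difference between the regions, -0.21 ± 0.55 (SE) with an adjusted p of 0.965, became 0.38. Ccr6 lay below the lower quartile of all probe sets on all 8 arrays.

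Ccl6 is a macrophage chemokine of rodents and was named after its values were seen. It measured 5.64, 5.58, 6.68 and 6.16 in medulla and 5.86, 5.86, 5.40 and 5.66 in cortex. Its highest array was medulla replicate 3, as for Cxcl9, and without it the medulla range was under 2-fold. Ccl5, a ligand of Ccr1 made by T cells and injured tubules, measured 5.53, 5.75, 5.70 and 5.93 in medulla and 5.71, 5.99, 5.93 and 6.24 in cortex. Replicate 4 was its highest array in both regions, at a range of 1.32-fold in medulla and 1.44-fold in cortex. Its difference between the regions was -0.24 ± 0.12 (SE), which did not pass at an adjusted p of 0.875.

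Cxcl1, Cxcl2, Cxcl3 and Cxcl6, which draw neutrophils through Cxcr2, varied little at low signals. Cxcl5, also a ligand of Cxcr2, was not among the genes measured. Cxcl1 measured 5.03, 5.08, 5.13 and 5.31 in medulla and 4.97, 5.10, 5.09 and 5.39 in cortex. Replicate 4 was highest in both regions for Cxcl1, but at a range of 1.21-fold in medulla and 1.33-fold in cortex. Cxcl2 spanned 4.78 to 5.10 in medulla and 4.92 to 5.07 in cortex, and Cxcl3 and Cxcl6 stayed between 4.23 and 4.58 on all arrays. Cxcr1 and Cxcr2, the neutrophil receptors, stayed between 4.33 and 4.52 on all arrays. Cxcl3, Cxcl6, Cxcr1 and Cxcr2 lay below the median of all probe sets on all 8 arrays. Cxcl1 and Cxcl2 lay close to it, and at such signals a change may not show. Cxcl1, Cxcl2 and Cxcl6 hold the NF-kB type motif that Cxcl11 and Ccl20 also hold.

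The C chemokine pair and Ccr7 with its ligands ranged under 1.5-fold in both regions. Xcl1, made by T and NK cells, measured 5.55, 5.49, 5.47 and 5.52 in medulla and 5.51, 5.62, 5.77 and 5.72 in cortex. Its difference of -0.15 ± 0.06 (SE) had the lowest unadjusted p of the 51 genes, 0.0361, with an adjusted p of 0.875. Its receptor Xcr1, which marks cross-presenting dendritic cells, measured 5.36, 5.53, 5.08 and 5.47 in medulla and 5.49, 5.55, 5.40 and 5.36 in cortex. Ccr7, the receptor that guides cells to lymph nodes, differed by -0.15 ± 0.06 (SE) with the same adjusted p, and its ligands Ccl19 and Ccl21 ranged by no more than 0.38 log2 in either region. Of the other receptors, Ccr1 ranged by 0.49 log2 in medulla and 0.28 in cortex, with replicate 4 highest in both, while Ccr3, Ccr4, Ccr8, Ccr9, Ccr10 and Ccr1l1 ranged by no more than 0.24 log2 in either.

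Counted by array, most of the genes that lay at least 2-fold above the other arrays did so on replicate 4. On medulla replicate 4, 4 of the 51 genes lay at least 2-fold above the median of the other 3 arrays (Ccl2, Ccr2, Cxcl11 and Cxcl13), 7.84% against 1.22% of all genes. On cortex replicate 4 there were 4 as well (Ccl2, Ccl20, Cxcl11 and Cxcl16), 7.84% against 0.93%. Ccl2 and Cxcl11 passed on both, against 0.65% of all genes. Medulla replicate 3 had 2, Ccl6 and Cxcl9 (0.187% of all genes), and cortex replicate 1 had 1, Cxcl9 (0.33% of all genes). Below the other arrays by that much lay Cxcl12 on medulla replicate 4 (0.826% of all genes) and on cortex replicate 4 (0.996%), Cxcl13 on medulla replicate 2 (0.286%) and Ccl2 on cortex replicate 3 (0.0495%). On the other arrays 0 of the 51 lay so far above, against 0.182% of all genes on medulla replicate 1, 0.171% on medulla replicate 2, 0.044% on cortex replicate 2 and 0.11% on cortex replicate 3. Likewise 0 lay so far below on medulla replicate 1 (0.16% of all genes), medulla replicate 3 (0.0606%), cortex replicate 1 (0.16%) and cortex replicate 2 (0.044%). Of the 51, 20 (39.2%) were highest on medulla replicate 4, where 27.1% of all genes were. In cortex 20 (39.2%) were highest on replicate 3, where 23.8% of all genes were, and 18 (35.3%) on replicate 4, near the 32.1% of all genes. Without its replicate 4 array a region had 3 genes with a 2-fold range, Ccl6, Cxcl9 and Cxcl13 in medulla against 0.936% of all genes, and Ccl2, Cxcl9 and Cxcl13 in cortex against 0.798%.

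**Figure D4:**
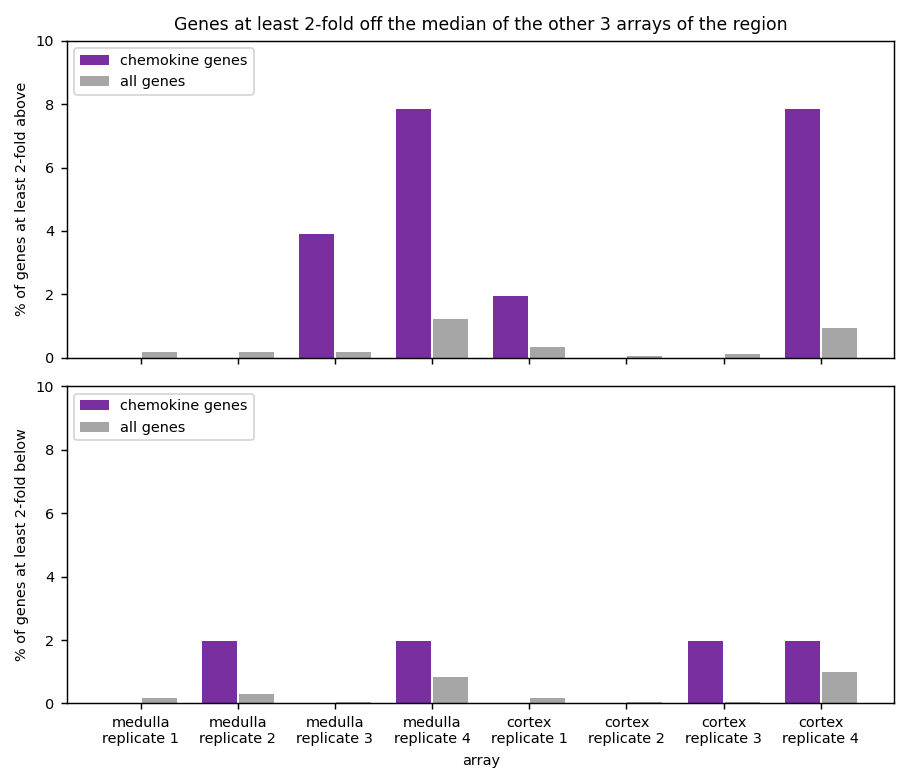
Share of the 51 chemokine genes (dark bars) and of all 18166 genes (grey bars), in percent, that lay at least 2-fold above (upper panel) or below (lower panel) the median of the other 3 arrays of the region, for each array. The dark bars reach 7.84% above on the replicate 4 arrays of medulla and cortex, where the grey bars are also at their highest, and 1 gene makes 1.96%.

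Some genes of inflammatory signalling had their highest values on the replicate 4 arrays. Of 22 measured cytokine and NF-kB response genes, 15 had their highest medulla value on replicate 4, where 27.1% of all genes did, and 13 their highest cortex value, where 32.1% did. In medulla 2 of the 22 ranged at least 2-fold, in cortex 2, and in both 1, which was Nfkbiz. Nfkbiz, an inducible regulator of NF-kB targets, measured 5.36, 5.24, 5.59 and 6.81 in medulla and 5.35, 4.96, 5.13 and 6.72 in cortex. The adhesion gene Icam1 measured 6.62, 6.43, 6.65 and 7.42 in medulla and 6.60, 6.50, 6.03 and 7.53 in cortex. Csf1, the macrophage growth factor, ranged by 0.96 log2 in medulla and 0.95 in cortex, with replicate 4 highest in both. In this list 0 genes differed between the regions by limma's adjusted p, and Tnf, Il1b and Il6 stayed between 4.55 and 4.99 on all arrays.

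Markers of macrophages and of leukocytes in general also differed between arrays, and in bulk tissue fewer cells of a type and less RNA per cell cannot be told apart. Of 15 macrophage and monocyte markers, 12 were highest on replicate 4 in medulla, where 27.1% of all genes were, and 6 in cortex, where 32.1% were. Their summed intensity spanned 1065 to 1901 in medulla and 844 to 1322 in cortex. The medulla sum was highest on replicate 4 and the cortex sum on replicate 1. Sums of intensity weigh bright probe sets most, here Lyz2 among them. Lyz2, the macrophage lysozyme gene, measured 8.96, 8.61, 9.78 and 9.76 in medulla and 9.18, 8.59, 8.01 and 8.58 in cortex. As for Cxcl9 and Cxcl13, its highest cortex array was replicate 1 and its medulla replicates 3 and 4 lay above replicates 1 and 2. Cd68 measured 5.22, 5.21, 5.42 and 6.12 in medulla and 5.37, 5.25, 4.91 and 5.53 in cortex. Ptprc, which encodes the pan-leukocyte antigen CD45, measured 5.78, 5.69, 6.17 and 6.70 in medulla and 6.10, 5.72, 5.46 and 6.20 in cortex. Both were highest on replicate 4 of each region and lowest in cortex on replicate 3, as was Ccl2. The summed intensity of the 8 pan-leukocyte markers was 1290, 1103, 1624 and 1543 on medulla replicates 1 to 4 and 1361, 1125, 970 and 1126 on cortex replicates 1 to 4. It was thus highest on medulla replicate 3 and cortex replicate 1, not on replicate 4. By count, however, 5 of the 8 markers were highest on replicate 4 in medulla, where 27.1% of all genes were. In cortex 4 of the 8 were, where 32.1% of all genes were. None of these markers differed between the regions by the adjusted p, 2 of the 15 macrophage markers and 1 of the 8 pan-leukocyte markers lay below the array median on all 8 arrays, and their part in the chemokine values was not tested.

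**Figure D5:**
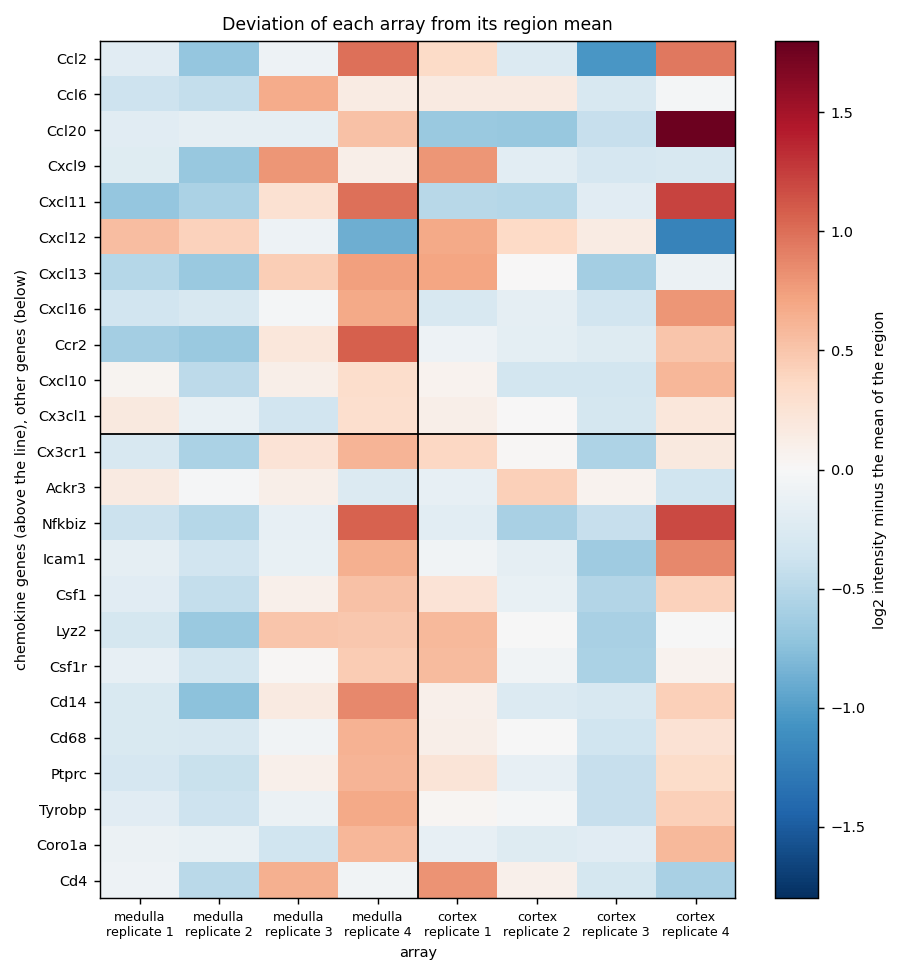
Log2 intensity minus the mean of the region, by colour, for 11 chemokine genes (rows above the line) and 13 other genes (below it) on the 4 medulla arrays (left) and 4 cortex arrays (right). The largest deviation is 1.76 for Ccl20 on cortex replicate 4, Cxcl12 is at -0.87 on medulla replicate 4 and -1.20 on cortex replicate 4, and Nfkbiz is at 1.06 and 1.18 on these arrays.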

How the data were processed

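The deposited table holds the authors' normalized intensity of every probe set on 8 arrays. The submitters' processing notes name RMA and the Affymetrix Expression Console, with versions and build not given in the sources used here. Values spanned 17.3 to 6229 with array medians of 34.1 to 34.7, so they were read as linear and already normalized between arrays, and were logged with no pseudocount. The number of arrays limits the precision, and detection calls were not used here. Of 29870 probe sets, those with 1 symbol in the platform annotation were kept, 1 per gene by the highest mean, which gave 18166 genes, with no filter on dim genes.

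The members, gene lists and tests were chosen with earlier results of these data known. The test between regions was limma's (version 3.58.1, under R 4.3.3), with p-values adjusted by Benjamini-Hochberg over all genes. Ranges and array counts carry no test. The routine was tested on simulated data. Named in full were members with a 2-fold range in both regions, members without overlap of the regions (0), the 5 of highest mean, and Ccl2, Ccl5, Ccl20, Cxcl1, Cxcl10, Cxcl12, Cxcl16, Cx3cl1, Ccr2, Cxcr4, Xcl1 and Xcr1 always (1 further item is not reported here). Other genes came from 13 lists, up to 3 a list by the smaller regional range, with Cx3cr1, Ptprc, Cd68, Havcr1 and Cyp24a1 always, and a few flat genes beside them to show a list's span. The alternatives were quantile normalization, median centring, mean of probe sets, a filter up to the 30th percentile, log2(intensity + 16), single arrays left out, a trended robust prior, array weights, treat at 1.5-fold, and other thresholds. Leaving out both replicate 4 arrays was added after the data were seen.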

Additional observations from a re-analysis of the deposited data

Results flagged for a closer look

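Within each region, 102 groups of 4 values (51 genes in 2 regions) were examined for an array that lay far from the other 3 by Dixon's criterion, and 9 met it, 2 in medulla and 7 in cortex. For independent, normally distributed values chance alone gives about 1 in 20 such groups. The same share over all genes was not counted, so the 9 cannot be read as particular to the chemokine genes. In 3 of the 9 the range was at least 2-fold. Ccl20 on cortex replicate 4 stood at 7.21, against 4.77 to 5.03 on the other cortex arrays. Cxcl16 on cortex replicate 4 stood at 9.13, against 7.99 to 8.17. Cxcl9 on cortex replicate 1 stood at 6.16, against 5.06 to 5.17. Ccl20 met it in medulla as well, where replicate 4 stood at 5.77 and the others at 5.03 to 5.07, a range of 0.74 log2.

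The other 5 had ranges of at most 0.21 log2. Ccl4 stood at 4.63 on medulla replicate 2, against 4.50 to 4.51. Ccl25 stood low on cortex replicate 1, at 5.33 against 5.48 to 5.51. Ccr8 stood at 4.67 on cortex replicate 3, against 4.46 to 4.49, and Cxcr6 stood low on that array, at 4.49 against 4.62. Ccr9 stood at 4.41 on cortex replicate 4, against 4.32.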

How the results depend on the processing

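The count of chemokine genes called between the regions was 0 in every setting with an adjusted p and 2 at an unadjusted p under 0.05. Genes with a 2-fold range numbered 8 in medulla, 7 in cortex and 6 in both. With 1 array left out they numbered 3 to 8 in medulla, 3 to 7 in cortex and 2 to 6 in both, lowest without replicate 4 of medulla or of cortex. With both replicate 4 arrays left out they were 3 in medulla, 3 in cortex and 2 in both, and at a 3-fold range 3 in medulla, 4 in cortex and 2 in both. The count whose regions do not overlap was 0 to 4 with 1 array left out (it was 4 when cortex replicate 1 was dropped, 3 for medulla replicate 2 or cortex replicate 4, and 1 for medulla replicate 4 or cortex replicate 2) and 5 without both replicate 4 arrays, against 0 with all arrays. The share over all genes is not given for fewer arrays, with which the regions overlap less often by chance. Genes at least 2-fold above on 1 or more arrays numbered 8, and 3 at 3-fold. Genes at least 2-fold below numbered 3, with 6 at 1.5-fold and 0 at 3-fold. Shares over all genes are not given for these counts above and below, nor for most range counts with 1 array left out. Such counts cannot be read as particular to the chemokine genes. Each of the 51 genes had 1 probe set, so the mean of probe sets could not change a range, an overlap or a count by array. The filter could only remove dim genes from such counts. Normalization, the mean of probe sets, the filter and the offset kept all counts named above within 1.5 times. The offset nevertheless put the cortex range of Cxcl9 at 0.82 log2 and the medulla range of Cxcl16 at 0.99, both under 2-fold.

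Differences between the regions were recomputed 225 times for 15 named genes, and 32 values in 10 genes changed sign, all of differences that had not passed. The mean of probe sets, the filter and the trended robust prior leave a difference as it was, so no sign could change there. With 1 array left out the difference spanned -0.036 to 0.63 for Ccl2, -0.44 to 0.38 for Ccl20, -0.25 to 0.33 for Ccr2, -0.0921 to 0.13 for Cx3cl1, -0.0551 to 0.0843 for Cxcl1, -0.097 to 0.21 for Cxcl10, -0.28 to 0.46 for Cxcl11, -0.64 to 0.0482 for Cxcl12, -0.18 to 0.32 for Cxcl16 and -0.14 to 0.0048 for Xcr1. With array weights it was 0.05 for Ccl20, -0.0835 for Ccr2, -0.003 for Cxcl1 and -0.0116 for Cxcl11, and with quantile normalization -0.0046 for Cxcl10. The cause was not tested. No paired analysis was possible because the labels number the arrays without pairing the regions.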

Other observations

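Of 11 neutrophil markers, 9 lay below the median of all probe sets on all 8 arrays, and S100a8 stayed between 4.21 and 4.25. Their summed intensity spanned 281 to 323 in medulla and 284 to 322 in cortex. Mmp9 was the 1 gene of this list with a 2-fold range in medulla, at 5.25, 6.17, 4.97 and 5.31 there and 5.23, 6.08, 5.95 and 5.64 in cortex, with its highest values on replicate 2 of both regions. Of 14 T and NK cell markers, 12 lay below the median on all arrays, and Cd4 was the 1 with a 2-fold range, at 7.30, 6.91, 8.02 and 7.33 in medulla and 7.70, 6.99, 6.58 and 6.31 in cortex. Rat macrophages also carry CD4. The 5 B and plasma cell markers, 9 mast cell and eosinophil markers, 7 dendritic cell markers and 3 platelet markers measured had 0 genes with a 2-fold range in either region. The summed intensity of the dendritic cell markers spanned 1364 to 1597 in medulla and 1346 to 1878 in cortex, highest on replicate 4 of both. Such sums weigh bright probe sets most. By count, 4 of the 7 markers were highest on replicate 4 in medulla, where 27.1% of all genes were. In cortex only 2 of the 7 were, where 32.1% of all genes were. Of 17 interferon-inducible genes, 1 had a 2-fold range in cortex and 0 in medulla, and Ifit2 measured 6.26, 5.63, 6.48 and 6.19 in medulla and 6.34, 5.83, 5.51 and 5.64 in cortex. Its highest arrays, medulla replicate 3 and cortex replicate 1, are also those of Cxcl9. Of 8 measured genes of the chemokine network outside the symbol rule, among them Pf4, Ppbp and Ccrl2, Cx3cr1 was the 1 with a 2-fold range, in medulla. No gene of these lists was called between the regions by limma.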
